A study of Mus musculus with 6 samples.

Results

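The transcripts followed here are those of 38 cell cycle genes, taken by gene symbol from the 31276 genes of the deposited matrices. All 38 symbols were present in each of 6 single-cell libraries of mouse kidney, and together they gave 146220 UMIs (unique molecular identifiers, each counting 1 captured transcript molecule) in the cells kept. Of the genes, 17 act before or during DNA replication (G1/S and S) and 21 act in G2 and mitosis (G2 and M), with Mki67 and Top2a counted among the latter. Each library came from the obstructed kidney of a C57BL/6 mouse killed 7 days after unilateral ureteral obstruction, the tying of 1 ureter. All 6 mice had this surgery, 3 received the compound SH045 and 3 received Vehicle, and by the title of the study the compound serves to inhibit the cation channel TRPC6. Contralateral kidneys were not analysed here, so nothing below is relative to a healthy kidney. The dose, and the sex and age of the mice, are not stated in the labels.

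A dividing cell copies its DNA once and then parts it. Before replication the MCM helicase is loaded on DNA, and in S phase PCNA, DNA ligase and the enzymes that make deoxynucleotides are in demand. Cyclin A and cyclin B then drive Cdk1 into mitosis, where kinesins, centromere proteins and the checkpoint kinases build and control the spindle, and the anaphase-promoting complex with Cdc20 ends it. Tubule epithelium is mostly quiescent in a healthy kidney and re-enters the cycle after injury, while macrophages and T cells that gather in an obstructed kidney can divide in place. Genes for S phase are known to be controlled through E2F sites, and genes for G2 and M through CHR elements paired with CCAAT boxes.

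The promoters of the set show this division in their letters. RefSeq promoters (mouse build GRCm38.p6, 250 bases before to 50 after the start) were matched to 32 of the 38 genes. Each was searched on both strands for the CHR letters TTTGAA, for CCAAT, and for E2F letters, any of TTTCCCGC, TTTGGCGC, TTTCGCGC and TTTGCCGC, where matches on opposite strands may overlap. The CHR letters were in 12 of 17 G2 and M promoters (70.6%), in 1 of 15 G1/S and S promoters (6.67%) and in 18.1% of the 27025 promoters of all genes. E2F letters were in 1 of 17 (5.88%, Cdk1), in 7 of 15 (46.7%) and in 2.32% of these sets, and CCAAT was in 88.2%, 60.0% and 37.9%. All 12 G2 and M promoters with the CHR letters also held CCAAT, as did 7.12% of all promoters. A match describes the letters only and is not a mapped binding site. The 250 bases before the start are shown, with matches to any of these letters on either strand in capitals, for 4 G2 and M genes: Ccnb2 (chr9:70421555-70421804, minus strand) and Cdk1 (chr10:69352913-69353162, minus strand), which carry the main comparison below, Top2a (chr11:99024190-99024439, minus strand) and Kif11 (chr19:37376132-37376381, plus strand).
Ccnb2: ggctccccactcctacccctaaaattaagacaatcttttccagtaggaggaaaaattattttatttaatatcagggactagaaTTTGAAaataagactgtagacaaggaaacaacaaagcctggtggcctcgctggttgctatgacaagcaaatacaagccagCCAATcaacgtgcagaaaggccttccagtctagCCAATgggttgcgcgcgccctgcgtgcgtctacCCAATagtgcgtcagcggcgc
Cdk1: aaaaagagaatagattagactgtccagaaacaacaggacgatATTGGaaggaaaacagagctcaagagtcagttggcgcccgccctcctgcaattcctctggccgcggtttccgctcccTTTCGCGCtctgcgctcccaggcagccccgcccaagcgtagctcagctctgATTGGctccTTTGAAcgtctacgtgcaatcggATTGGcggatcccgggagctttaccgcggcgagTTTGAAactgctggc
Top2a: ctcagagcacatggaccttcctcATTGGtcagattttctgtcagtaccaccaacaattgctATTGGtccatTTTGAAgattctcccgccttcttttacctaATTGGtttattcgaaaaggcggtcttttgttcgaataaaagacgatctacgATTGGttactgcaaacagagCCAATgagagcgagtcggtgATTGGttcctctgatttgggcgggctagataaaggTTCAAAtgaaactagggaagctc
Kif11: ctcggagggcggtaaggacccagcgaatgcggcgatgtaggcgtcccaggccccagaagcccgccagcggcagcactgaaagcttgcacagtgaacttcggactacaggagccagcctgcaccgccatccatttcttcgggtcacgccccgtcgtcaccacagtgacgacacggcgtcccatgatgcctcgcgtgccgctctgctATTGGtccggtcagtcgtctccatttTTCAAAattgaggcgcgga
For contrast, the same window is shown for the helicase genes Mcm5 (chr8:75109259-75109508, plus strand) and Mcm6 (chr1:128359706-128359955, minus strand), where the capitals mark E2F and CCAAT letters and no CHR letters were found.
Mcm5: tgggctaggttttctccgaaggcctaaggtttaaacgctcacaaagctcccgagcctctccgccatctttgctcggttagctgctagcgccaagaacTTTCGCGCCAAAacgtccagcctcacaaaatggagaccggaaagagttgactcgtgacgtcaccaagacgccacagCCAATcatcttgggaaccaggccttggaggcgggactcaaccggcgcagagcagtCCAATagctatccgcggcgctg
Mcm6: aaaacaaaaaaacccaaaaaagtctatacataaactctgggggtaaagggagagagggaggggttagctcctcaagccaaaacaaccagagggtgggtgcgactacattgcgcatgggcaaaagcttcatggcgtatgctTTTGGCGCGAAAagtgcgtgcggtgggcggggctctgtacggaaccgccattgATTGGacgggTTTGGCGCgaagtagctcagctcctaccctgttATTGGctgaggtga

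The libraries held between 21186872 and 32256602 UMIs. With at least 200 genes and at most 50% mitochondrially encoded UMIs, 23578 of 25978 barcodes were kept, 3420 to 3985 per SH045 library and 4138 to 4265 per Vehicle library, at medians of 3531 to 5408 UMIs. The mitochondrial limit was exceeded by 10.3 to 16.5% of SH045 and 3.56 to 5.28% of Vehicle barcodes. Cells were assigned to classes one by one from markers that include no cell cycle gene, and 87.1% of the assigned cells had the same class as their Leiden cluster. Injured tubule cells were led by Havcr1, a marker of tubule injury, and by Vcam1, Cp and Krt20. No cluster bore that class, since the cluster led by Havcr1 (1379 cells) held 698 cells assigned as proximal tubule, and results for that cluster stand beside those of the class. The libraries SH045 1 and SH045 2 shared 49 kept barcode sequences where other pairs shared 5 to 17, and 178 sequences occurred in more than 1 library. Levels are CPM, the count of a gene per 1000000 UMIs of a class summed per library, and n is 3 mice per group.

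T cells carried the most cell cycle transcript of any class. All 38 genes had their highest level, as the mean of the SH045 and Vehicle means, in T cells among the 19 classes with at least 50 cells and with cells in every library, a pattern described here without a test. Mki67, the marker of cells in cycle, was at 550 CPM in T cells and at 300.1 in the next class, natural killer cells. Ccnb2, a B-type cyclin, was at 875 CPM against 315 in natural killer cells, and Kif11, the kinesin that separates spindle poles, was at 95.6 against 25.3 in B cells. For Mcm4, a helicase subunit, the gap was small, at 98.4 against 97.1 CPM in natural killer cells. The lowest class was plasmacytoid dendritic cells or the thick ascending limb for most genes.

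**Figure D1:**
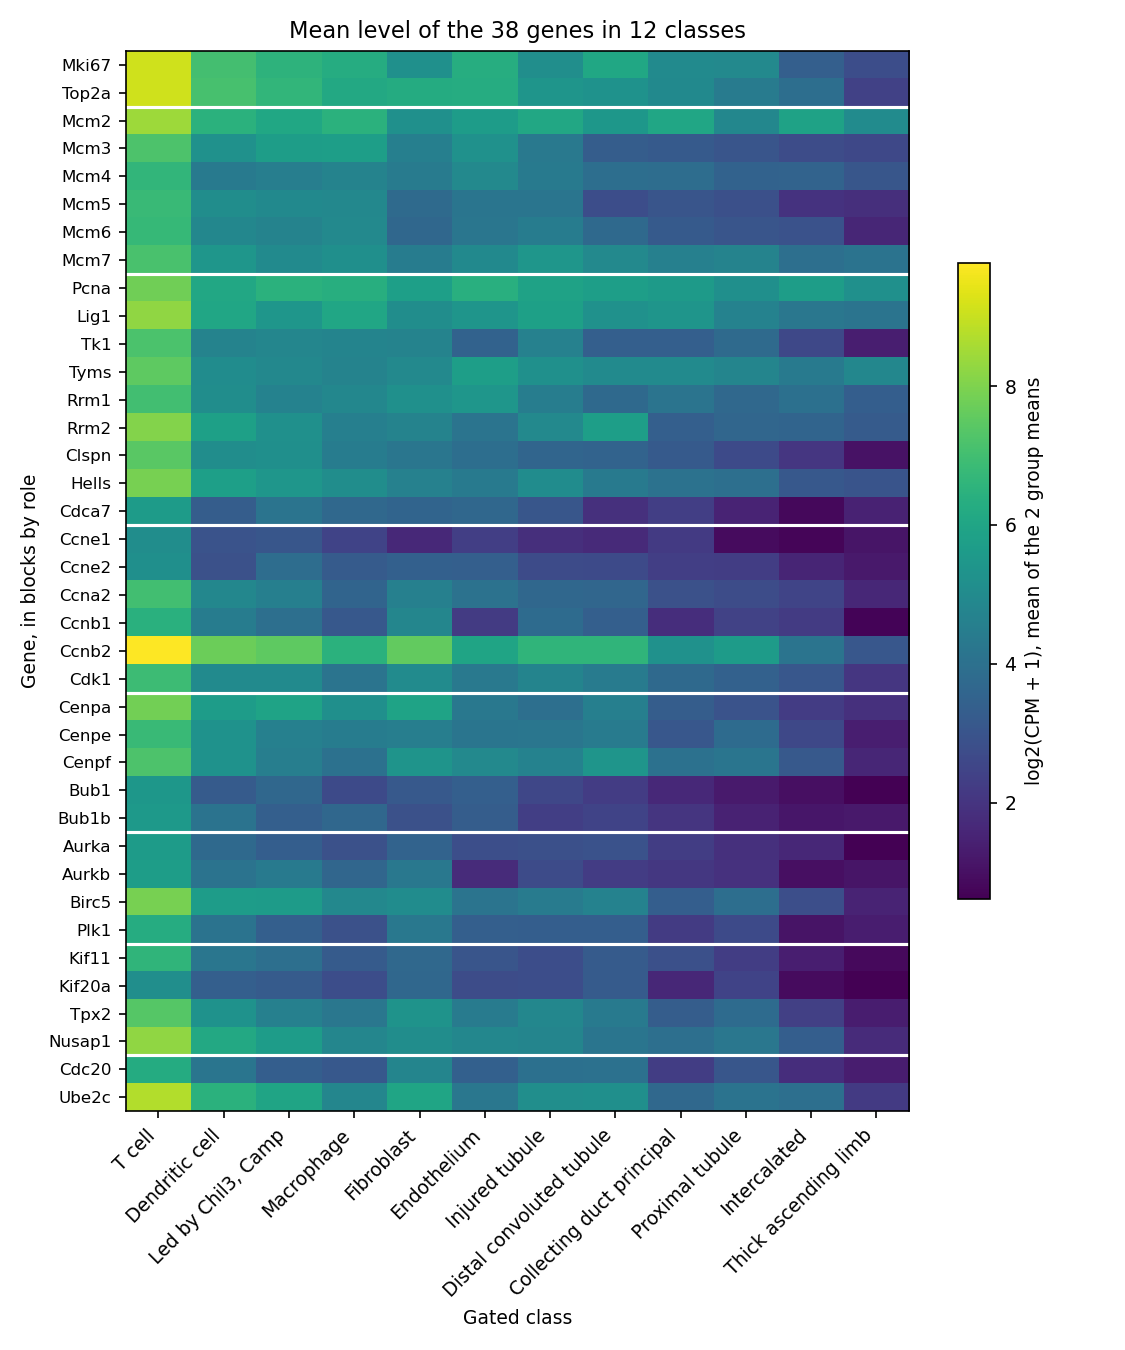
Mean level of each of the 38 genes (rows, in blocks by role) in the 12 classes tested (columns), as log2(CPM + 1) of the mean of the SH045 and Vehicle group means. The T cell column is the brightest in every row, and the thick ascending limb and intercalated columns are the darkest for most G2 and M genes.

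A cell with at least 5 UMIs of the 38 genes was counted as carrying cell cycle transcripts, which 3789 of 23578 cells did (16.1%, exact Clopper-Pearson 95% interval 15.6 to 16.6%, counting error only). Just inside and outside this limit, 565 cells had exactly 5 such UMIs and 880 had exactly 4. Among T cells, 531 of 901 (58.9%) passed, and among macrophages 1623 of 10482 (15.5%), so that macrophages still made up 42.8% of all passing cells and T cells 14.0%. Injured tubule cells passed in 256 of 1037 cells (24.7%), proximal tubule cells in 264 of 2377 (11.1%), and intercalated cells, the acid-base transporting cells of the collecting duct, in 92 of 1656 (5.56%). Plasmacytoid dendritic cells, which divide little once mature, passed in 1 of 70 (1.43%, interval 0.036 to 7.70%) at a median of 3218 UMIs, close to the 3497 of T cells. Tubule cells are deeper: injured tubule cells had a median of 7687 UMIs, and those that passed had 12170 against 6794 in the rest. Thinned to 2000 UMIs per cell, a depth every cell reached, 481 of 901 T cells, 995 of 10482 macrophages, 81 of 1037 injured tubule cells and 10 of 1656 intercalated cells still had 5.

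**Figure D2:**
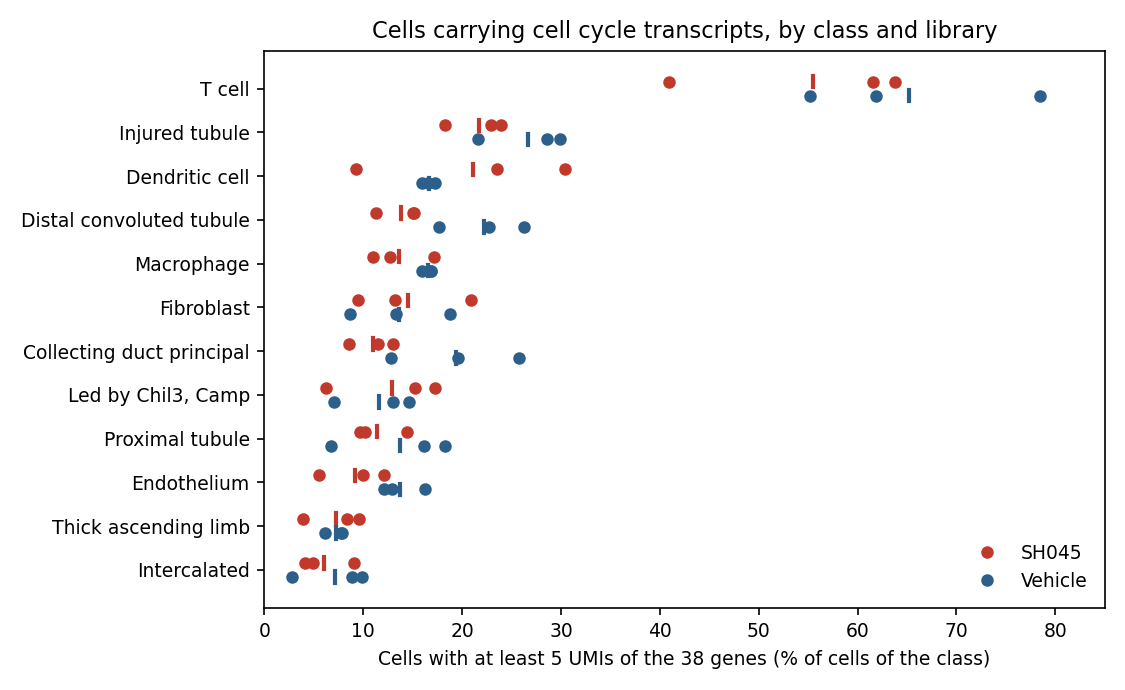
Share of cells with at least 5 UMIs of the 38 genes in each class (points are libraries, n = 3 per group, vertical bars are group means). T cell libraries lie between 40.9 and 78.5%, above all libraries of every other class shown, and SH045 and Vehicle points overlap in 10 of the 12 classes.

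The share of such cells did not separate the groups in most classes. In T cells it was 61.6, 63.8 and 40.9% with SH045 and 55.1, 78.5 and 61.8% with Vehicle, and in macrophages it was 12.7, 11.0 and 17.2% against 16.0, 16.8 and 16.8%. In both classes the groups overlapped. All SH045 libraries were below all Vehicle libraries in the distal convoluted tubule (13.8 ± 2.22% against 22.2 ± 4.30%, SD, n = 3) and in the endothelium (9.20 ± 3.37% against 13.8 ± 2.21%). After thinning to 2000 UMIs these 2 classes overlapped as well, at 3.49 ± 1.93% against 7.99 ± 4.08% and 5.53 ± 0.10% against 2.15 ± 3.72%.

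Classes also differed in which part of the cycle their transcripts came from. The 21 G2 and M genes gave 61.2 ± 2.38% of the UMIs of the set in SH045 T cells and 62.1 ± 3.39% in Vehicle T cells (SD, n = 3). In macrophages they gave 44.1 ± 2.06% and 48.2 ± 6.24%, and in the thick ascending limb 21.2 ± 13.7% and 13.4 ± 7.92%. In these 3 classes the groups overlapped. In injured tubule cells the G2 and M share was 48.4, 28.6 and 34.4% with SH045 and 56.0, 52.9 and 55.4% with Vehicle, so each SH045 library was below each Vehicle library.

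The comparison of SH045 with Vehicle asks whether the treated mice carried other levels of these transcripts in each class. It called the largest number of the genes in injured tubule cells. There, 7 of the 32 genes that passed the low-count filter were lower with SH045 and 0 were higher (edgeR quasi-likelihood test, adjusted p under 0.05), where 1.06% of all 10278 genes tested were called lower and 1.35% higher. The median log2 change was -0.81 over the 32 genes and 0.01 over all genes, and 30 of the 32 were below 0. By phase, 6 of 17 G2 and M genes were called (median -1.32), and 1 of 15 G1/S and S genes (median -0.26). The 6 genes not tested were Ccne1, Ccne2, Bub1, Bub1b, Aurka and Aurkb. A gene can pass the low-count filter through the group with the higher level alone. Without that filter 36 of the 38 genes were below 0 (median log2 change -0.885).

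Of the cyclins and their kinase, 3 of the 4 genes tested were lower. Ccnb2 was at 62.1, 38.1 and 46.7 CPM with SH045 and 156, 131 and 147 with Vehicle. The groups did not come near each other, and the log2 change was -1.65 ± 0.16 (SE, edgeR adjusted p = 1.6e-05). Cdk1, the kinase that mitotic cyclins switch on, was at 16.3, 7.62 and 13.4 CPM against 43.3, 46.0 and 28.4, a log2 change of -1.74 ± 0.28 (edgeR adjusted p = 0.0056). Ccna2, cyclin A2, was at 5.92, 3.46 and 7.04 CPM against 19.0, 18.5 and 15.9 (log2 change -1.77 ± 0.35, edgeR adjusted p = 0.0134). At these levels Ccna2 passed the low-count filter mainly through the Vehicle libraries, and it was also called without that filter. For all 3 genes every SH045 library was below every Vehicle library. Ccnb1, the other B-type cyclin of the set, was at 6.00 ± 5.87 against 20.4 ± 4.22 CPM (SD, n = 3) and missed the limit at an edgeR adjusted p of 0.058.

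Genes of the mitotic machinery were called from 3 role groups. Birc5, survivin, a member of the chromosomal passenger complex, was at 12.6, 10.4 and 14.1 CPM with SH045 and 24.3, 33.2 and 26.9 with Vehicle (log2 change -1.30 ± 0.27, edgeR adjusted p = 0.0153). Nusap1, which bundles spindle microtubules, was at 22.2, 5.54 and 10.9 CPM against 52.8, 35.3 and 30.9 (log2 change -1.68 ± 0.36, edgeR adjusted p = 0.0315). At these levels it passed the low-count filter partly through the Vehicle libraries, and it was also called without that filter. Cenpf, a kinetochore protein, was at 20.7, 9.0 and 18.6 CPM against 40.1, 29.6 and 27.4 (log2 change -1.06 ± 0.28, edgeR adjusted p = 0.0471). The SH045 libraries of all 3 genes lay below the Vehicle libraries. Plk1, Cenpa and Kif20a, with roles in mitotic entry, centromeres and cytokinesis, also had no overlap between groups but missed the limit, at log2 changes of -1.38, -1.14 and -1.35 (edgeR adjusted p = 0.052, 0.070 and 0.113). Ube2c, the ubiquitin-conjugating enzyme of the anaphase-promoting complex, overlapped, at 32.5, 4.85 and 7.04 CPM against 61.3, 72.7 and 25.4.

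In the replication groups 1 gene was called. Rrm2, the small subunit of ribonucleotide reductase, was at 10.3, 9.70 and 23.7 CPM with SH045 and 46.5, 54.6 and 30.9 with Vehicle (log2 change -1.66 ± 0.34, edgeR adjusted p = 0.0261). The groups did not overlap for it. The 6 helicase genes had log2 changes between -0.33 (Mcm7) and 0.20 (Mcm3), and 0 of them were called. Pcna, the replication clamp, was at 59.7 ± 4.47 against 58.1 ± 5.20 CPM, a log2 change of -0.06, and Mcm5 was at 17.6 ± 7.48 against 16.3 ± 3.85. Mki67 was at 56.2, 12.5 and 23.1 CPM against 31.7, 43.1 and 36.3, with SH045 1 the highest of all 6 libraries and SH045 2 the lowest (log2 change -0.43 ± 0.49, edgeR adjusted p = 0.675). Top2a, the topoisomerase that untangles chromosomes, was at 42.9, 9.70 and 23.1 against 49.6, 80.6 and 40.3 and overlapped too.

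**Figure D3:**
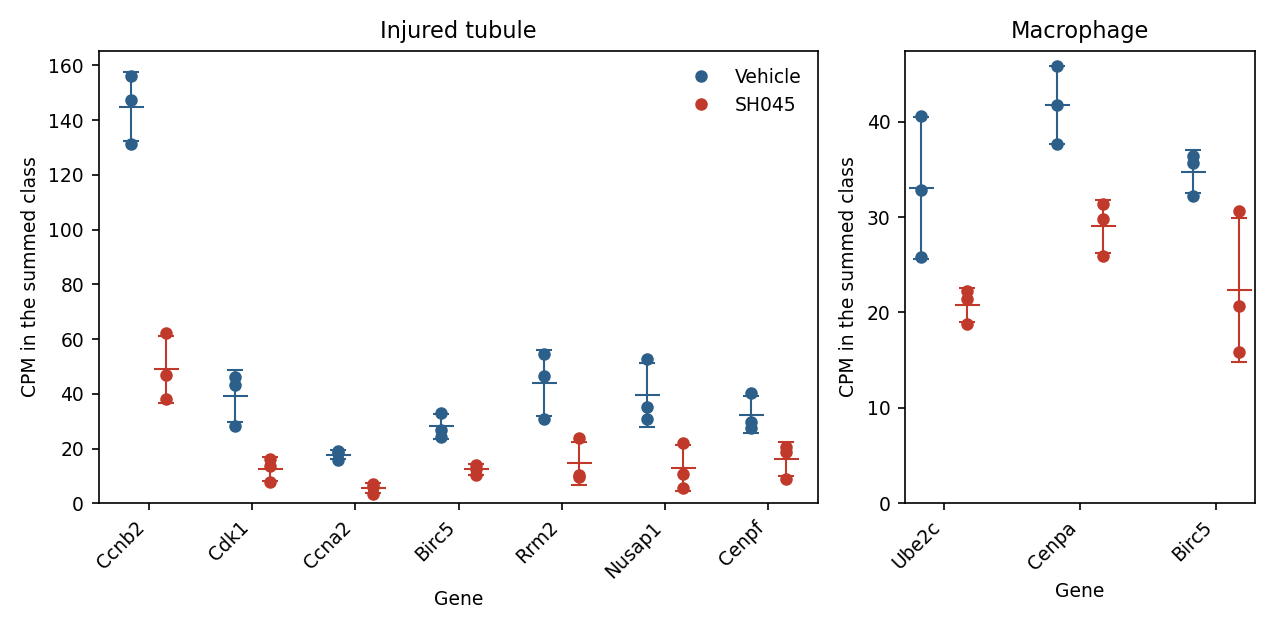
CPM of the genes called in injured tubule cells (left) and in macrophages (right), by library (points), with the mean and SD of each group (n = 3). In both panels all SH045 points of a gene lie below all its Vehicle points, and Ccnb2 in injured tubule cells shows the widest gap.

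Of the 32 genes, 12 had every SH045 library below every Vehicle library in CPM, against 8.18% of all genes tested in that class. Over all 38 genes, filtered or not, 14 did. Since a gene low with SH045 can pass the low-count filter through the Vehicle libraries, the 12 of 32 may be partly set by the filter. It is given as a description. Summed over the 38 genes the level was 806, 551 and 729 CPM with SH045 and 1205, 1272 and 926 with Vehicle, a ratio of 0.61 between group means without overlap. The share of injured tubule cells with at least 5 UMIs of the set overlapped (21.7 ± 3.02% against 26.7 ± 4.47%), while the share with at least 5 UMIs of the G2 and M genes alone did not (6.29, 3.77 and 4.47% against 8.80, 11.2 and 9.20%). The class held 159, 159 and 179 cells with SH045 and 125, 241 and 174 with Vehicle, so the SH045 values of the called genes rest on 24 UMIs (Ccna2) to 212 UMIs (Ccnb2).

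The Ccnb2 and Cdk1 calls in injured tubule cells held when any 1 library was left out (edgeR adjusted p up to 0.0012 and 0.030). The Cenpf call was lost in all 6 such fits (0.069 to 0.118), and the count of called genes fell from 7 to 2 without SH045 2 or without Vehicle 2, and to 4 without SH045 1. The Rrm2 call was also lost without Vehicle 1 and the Nusap1 call without SH045 3 (up to 0.124 and 0.097 over these fits). With DESeq2 in place of edgeR 2 genes were called, Ccnb2 and Top2a. DESeq2 gave an adjusted p to 4709 of 20982 genes in this class and called 2.19% of those 4709 lower. Cdk1 was among the genes without an adjusted p, so its call was not assessed in that fit. Without the 5% of cells with the highest Scrublet doublet scores the count was also 2, Ccnb2 and Cdk1. Without the barcode sequences shared between libraries the count was 7. With the cluster led by Havcr1 in place of single-cell assignment it was 6, of which Birc5, Ccnb2, Cdk1, Nusap1 and Rrm2 were among the 7 and Cenpa was not.

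Transcripts of other cells were present in the injured tubule class, and their part in the result was not tested. All 10 macrophage markers had UMIs there, at a summed 823 ± 96.2 CPM with SH045 and 981 ± 215 with Vehicle (SD, n = 3, overlapping), and all 8 T cell markers were found at 21.9 ± 13.1 and 23.2 ± 12.1 CPM. Median depth was 6993 ± 274 against 8552 ± 1656 UMIs and overlapped. Fibroblast markers, of which 5 of 7 had UMIs, were low but higher in each SH045 library (17.8 ± 8.79 against 3.63 ± 2.27 CPM), as was the median mitochondrial percentage (4.58 ± 0.41% against 3.67 ± 0.22%). Of the injured tubule cells with at least 5 UMIs of the set, 20 of 256 (7.81%) were above the Scrublet limit, against 3.20% of the others.

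Whether the change in injured tubule cells differed from that in other classes was tested gene by gene, with the library as a block. Against macrophages, proximal tubule and T cells, 0 of 38, 36 and 38 genes differed at an edgeR adjusted p under 0.05, where 0.152, 0.0 and 0.0673% of all genes did. At an unadjusted p under 0.05 there were 8, 4 and 9. The median difference of log2 changes over the genes was -0.65, -0.69 and -0.76, against medians of 0.04, 0.03 and 0.02 over all genes. The most different gene against macrophages was Cdk1 (difference -1.41 ± 0.32, edgeR adjusted p = 0.097). The larger number of calls in injured tubule cells is therefore not shown to set them apart from these classes.

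**Figure D4:**
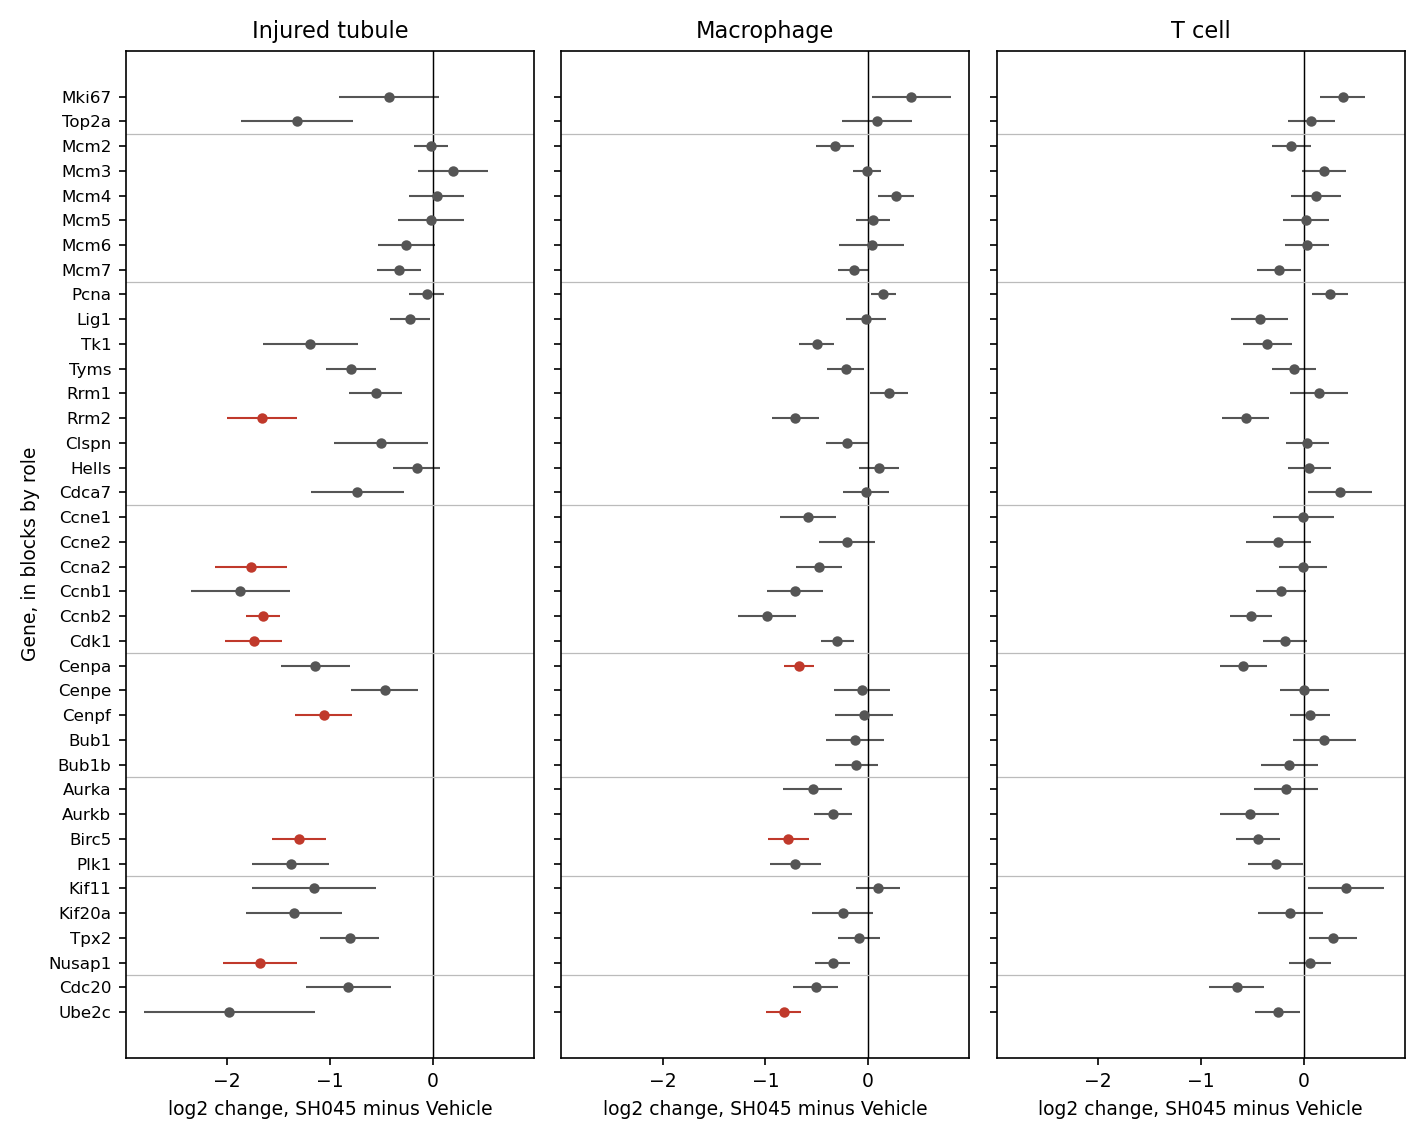
Log2 change (SH045 minus Vehicle, edgeR, bars are SE) of each gene tested in injured tubule cells, macrophages and T cells, in blocks by role, on one shared axis. Red marks the 7 genes called in injured tubule cells and the 3 in macrophages, and the injured tubule points of the cyclin, kinase and spindle blocks lie further below 0 than those of the helicase block.

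In macrophages 3 of 38 genes were lower with SH045 and 0 were higher. Of all 12205 genes tested in macrophages 5.47% were called lower and 6.35% higher, so the count is near the background and is not a result about the set. Ube2c was at 18.7, 21.4 and 22.2 CPM with SH045 and 25.8, 40.6 and 32.8 with Vehicle (log2 change -0.82 ± 0.17, edgeR adjusted p = 0.0113). Cenpa, the histone that marks centromeres, was at 25.9, 31.4 and 29.8 against 37.7, 45.9 and 41.7 (log2 change -0.67 ± 0.14, edgeR adjusted p = 0.0116). Birc5 was at 20.7, 15.9 and 30.6 against 35.7, 32.2 and 36.4 (log2 change -0.78 ± 0.20, edgeR adjusted p = 0.0299). The groups did not overlap for any of these genes, as for 8 of the 38 lower with SH045 against 8.78% of all genes. Without Vehicle 2 the count of calls fell to 0 (edgeR adjusted p of 0.065 for Ube2c and 0.062 for Cenpa) and without SH045 3 it was 6, and the Birc5 call was also lost without SH045 1, Vehicle 1 or Vehicle 3 (up to 0.116). Dendritic cell markers, all 8 with UMIs, were lower in each SH045 macrophage pool (111 ± 36.1 against 284 ± 66.4 CPM) and the 5 granulocyte markers higher (79.3 ± 27.1 against 51.0 ± 3.87), and their part in these values was not tested.

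Other macrophage genes missed the limit. Ccnb2 was at 41.1, 58.6 and 86.6 CPM against 97.8, 117 and 121, with no overlap and a log2 change of -0.99 ± 0.28 that missed the limit (edgeR adjusted p = 0.071). Mki67 was at 95.1, 58.6 and 123 against 40.9, 56.2 and 86.9, and Top2a at 82.4, 45.8 and 96.5 against 43.2, 61.7 and 83.1, both overlapping. The summed level was 1075 ± 253 against 1102 ± 70.1 CPM. One cluster of 393 cells, 387 of them assigned as macrophages, was led by Mki67 and Top2a although no cell cycle gene of the lists used here entered the clustering.

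In the myeloid compartment as a whole (macrophages, dendritic cells, granulocytes and cells assigned from monocyte markers) 3 of 38 genes were called lower, Ccnb2, Cenpa and Birc5 (log2 changes of -0.75, -0.62 and -0.61), where 4.26% of all genes were, and 0 were called without Vehicle 2. The 349 cells assigned from monocyte markers are called here by their leading genes, since Chil3, Ly6c2 and Plac8 stood beside the granulocyte genes Camp, S100a8, Elane, Ngp, S100a9 and Prtn3 in their top 10, and no cluster bore that class. In this class the values went the other way in CPM. The summed level was 1958, 1991 and 1740 CPM with SH045 and 522, 1231 and 991 with Vehicle, with no overlap. Of the 12 genes tested, 7 were above in every SH045 library, against 7.42% of all genes. In pools this small a gene could pass the low-count filter through the SH045 libraries alone. The 7 of 12 may therefore be partly set by the filter and is given as a description. By the test 0 of the 12 were called, with 7 at an unadjusted p under 0.05, where edgeR called 0.159% of 3773 genes. Top2a in the class led by Chil3 and Camp was at 141, 175 and 135 against 29.8, 53.6 and 56.9 CPM (log2 change 1.57, edgeR adjusted p = 0.079). The class was small, with 29 to 79 cells per library.

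The other tubule classes had few calls. In collecting duct principal cells, which reabsorb water, 1 of 18 genes was called lower, where 1.79% of all genes were. It was Mcm2, a helicase subunit, at 48.5, 49.1 and 48.0 CPM with SH045 and 75.7, 84.3 and 80.2 with Vehicle (log2 change -0.75, edgeR adjusted p = 0.0159), without overlap. In intercalated cells 1 of 13 was called lower, where 1.17% of all genes were: Mcm7, another helicase subunit, at 9.05, 6.56 and 9.76 CPM against 29.8, 16.1 and 16.6 (log2 change -1.28, edgeR adjusted p = 0.0362). The Mcm2 call was lost without SH045 1, SH045 3 or Vehicle 2, and the Mcm7 call in each fit but that without Vehicle 3 (edgeR adjusted p up to 0.076 and 0.127). The 10 macrophage markers were lower in each SH045 pool of collecting duct principal cells (292 ± 45.1 against 668 ± 167 CPM), as were the 8 injured tubule markers (346 ± 53.6 against 526 ± 57.9), and their part was not tested.

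No gene of the set was called in proximal tubule (31 tested), distal convoluted tubule (25 tested) or thick ascending limb (5 tested), where 0.0271, 0.225 and 0.118% of all genes were called in either direction. At an unadjusted p under 0.05 there were 4, 9 and 0. In the distal convoluted tubule 24 of 25 genes were below 0, at a median log2 change of -1.28, but single libraries spread widely: the summed level was 818, 309 and 543 CPM with SH045 and 420, 1035 and 1862 with Vehicle. There too a gene could pass the low-count filter through the Vehicle libraries alone, so the 24 of 25 may be partly set by the filter. Macrophage markers (306 ± 42.5 against 690 ± 147 CPM, 10 of 10 with UMIs) and median depth (7307 ± 371 against 8920 ± 718 UMIs) were also lower in each SH045 pool of this class, and their part was not tested. In collecting duct principal cells, 1 library stood apart, with 1299 CPM in Vehicle 3 against 315 to 479 in the other 5. In tubule cells of all classes summed, 37 of 38 genes were below 0 (median log2 change -0.62) and 17 had an unadjusted p under 0.05. There edgeR called 0 of the 38, and 0.0% of all 14049 genes. DESeq2 called 10 of the 38 lower, and 0.958% of the 13363 genes to which it gave an adjusted p. The summed level was 517, 360 and 457 against 619, 524 and 844 CPM, with every SH045 library below every Vehicle library, as for 11 of 38 genes singly against 7.16% of all genes. The mix of classes in these sums also varied. Collecting duct principal cells numbered 234, 315 and 131 with SH045 and 86, 143 and 128 with Vehicle. Proximal tubule cells numbered 405, 364 and 256 against 756, 415 and 181. The part of the mix in the summed values was not tested.

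T cells, the class with the highest levels, showed no called gene among 38, where edgeR called 0.48% of 6673 genes, and 5 had an unadjusted p under 0.05. Their summed level was 7728, 7790 and 4923 CPM with SH045 and 6299, 8263 and 7646 with Vehicle, so the groups overlapped. Ccnb2 was lower in each SH045 library (733, 907 and 514 against 983, 1059 and 1054 CPM) but missed the limit (log2 change -0.51 ± 0.20, edgeR adjusted p = 0.302). The log2 changes of the 6 helicase genes lay between -0.24 and 0.20. In these T cell pools the 8 dendritic cell markers were lower with SH045 (38.4 ± 28.0 against 108 ± 12.9 CPM, without overlap) and fibroblast markers higher (39.0 ± 23.0 against 3.53 ± 2.51, 5 of 7 with UMIs).

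The lymphoid compartment gave another picture only in CPM. Its summed level was 4379, 5842 and 3975 CPM with SH045 and 2585, 2618 and 3656 with Vehicle, and 20 of 38 genes were higher in every SH045 library. So were 47.8% of all genes in that compartment, whose median ratio of mean CPM was 0.61 on the log2 scale. After scaling by the trimmed mean of M-values (TMM), as used in all tests, the median change of the 38 genes was 0.09 and 0 were called, with 2 at an unadjusted p under 0.05, where edgeR called 2.9% of all genes. The mix of cells also differed, with 211, 141 and 176 T cells and 68, 14 and 14 plasma cells in the SH045 libraries, against 107, 93 and 173 T cells and 48, 110 and 67 plasma cells with Vehicle.

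In dendritic cells, fibroblasts and endothelium, 0 of 32, 22 and 10 genes tested were called, where edgeR called 0.318, 0.0775 and 0.53% of all genes. At an unadjusted p under 0.05 there were 0, 0 and 1. Dendritic cells of SH045 1 carried 2613 CPM of the set and those of SH045 3 carried 844, a wider range than the 1350 to 1787 of the Vehicle libraries. Fibroblasts of Vehicle 1 carried 298 CPM and those of Vehicle 3 2409, a range that held all 3 SH045 libraries. In the stromal compartment as a whole 0 of 31 were called, with 0 at an unadjusted p under 0.05, where 0.634% of all genes were called.

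In whole libraries the summed CPM of the set overlapped between the groups, at 1319, 830 and 1045 CPM with SH045 and 958, 910 and 1309 with Vehicle. After TMM scaling the median log2 change was -0.19 over the 38 genes and 0.01 over all genes. None of the 38 genes was called by edgeR, where 4.31% of 16532 genes were, and 11 had an unadjusted p under 0.05. DESeq2 called 6 of the 38 lower, and 4.79% of the 17109 genes to which it gave an adjusted p. Ccnb2 came closest (97.0, 81.6 and 78.8 CPM against 111, 102 and 165, log2 change -0.79 ± 0.18, edgeR adjusted p = 0.053). Of the other genes with the highest level in their role group, Mki67 was at 89.0 ± 31.7 against 60.0 ± 28.1 CPM (log2 change 0.32, edgeR adjusted p = 0.602), the 1 of them apart from Pcna with a log2 change above 0. Pcna was at 72.6 ± 9.38 against 59.0 ± 6.02 CPM, Mcm2 at 71.8 ± 7.20 against 73.3 ± 5.67, Nusap1 at 32.4 ± 8.01 against 33.2 ± 9.75, Birc5 at 26.1 ± 6.74 against 34.1 ± 8.07, Cenpa at 25.8 ± 3.78 against 35.9 ± 8.95, and Ube2c at 37.6 ± 13.4 against 46.7 ± 10.7. All of these overlapped between the groups. In CPM 17 of the 38 genes were below 0 and after TMM scaling 30 were, since TMM scaling removed a median shift of 0.25 on the log2 scale over all genes. In macrophages these counts were 20 and 29 (shift 0.18), and in injured tubule cells they were 27 and 30 of 32 (shift 0.09).

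The following genes trace how far the direction varied over the 12 classes. Mki67 was tested in 11, with log2 changes from -1.22 in collecting duct principal cells to 1.75 in the class led by Chil3 and Camp, 4 of them below 0, and edgeR adjusted p of 0.304 or more. Its value in collecting duct principal cells rested on Vehicle 3 (119 CPM against 0.00 to 26.8 in the other libraries) and was 2.08 without it (edgeR adjusted p = 0.048). Top2a ran from -1.74 in intercalated cells to 1.57 in the same class, with edgeR adjusted p of 0.079 or more. Pcna was tested in all 12 and ran from -0.48 in collecting duct principal cells to 1.09 in another class, with edgeR adjusted p of 0.247 or more. Mcm5, tested in 5 classes, stayed between -0.05 and 0.36, and Ccnb1, tested in 4, was at -1.87 in injured tubule cells and 0.15 in dendritic cells. Cenpa was below 0 in all 8 classes tested, from -2.01 in the distal convoluted tubule to -0.25 in the class led by Chil3 and Camp, and was called in macrophages.

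Genes of the cycle outside the set were taken as 4 lists. Of 34 other G2 and M genes, 6 of 27 tested were lower with SH045 in injured tubule cells and 0 were higher, at a median log2 change of -0.85, where 1.06% of all genes were called lower and 1.35% higher. Cks1b, a subunit bound to Cdk1, was at 31.1, 24.2 and 37.1 CPM against 62.3, 64.5 and 56.2 (log2 change -1.07, edgeR adjusted p = 0.0094), and its call held with any 1 library left out. Hmmr, Spc25, Ckap2l, Cdca8 and Racgap1, all with roles at the spindle or in cytokinesis, had log2 changes between -1.67 and -1.51. Each of these calls was lost without at least 1 library (edgeR adjusted p up to 0.126), SH045 2 in every case. Hmmr, Ckap2l and Racgap1, at 7.40 ± 3.11, 7.20 ± 2.10 and 5.64 ± 2.92 CPM with SH045, passed the low-count filter mainly through the Vehicle libraries. Of 30 other S-phase genes 21 were tested there and 0 were called, with 4 at an unadjusted p under 0.05 (median -0.26). Of 14 G1 cyclins, their kinases and E2F factors 8 were tested and 0 called (3 unadjusted), and of 18 inhibitors of the cycle 15 were tested and 0 called (6 unadjusted). Ccnd1, cyclin D1, was at 250.4 ± 62.8 against 278 ± 58.0 CPM, and Cdkn1a, the inhibitor p21, at 167 ± 11.3 against 176 ± 37.3, both overlapping. Cdk4, the partner of cyclin D1, was at 204 ± 31.2 against 245 ± 10.7 CPM (edgeR adjusted p = 0.16).

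In macrophages the other G2 and M list had 3 of 34 genes lower, Cks1b (26.4 ± 2.43 against 41.9 ± 3.74 CPM, edgeR adjusted p = 0.0060), Cdca8 (24.1 ± 2.90 against 35.2 ± 1.90, 0.0095) and Cdca3 (9.78 ± 2.67 against 15.4 ± 1.92, 0.0210), a count near the 5.47% of all macrophage genes called lower. None of 30 S-phase genes was called there by edgeR (2 at an unadjusted p under 0.05). Cdk6, a kinase of G1, was higher (71.1, 38.8 and 50.2 against 27.1, 34.7 and 27.8 CPM, edgeR adjusted p = 0.0286). Of the inhibitors, Cdkn2d was lower (16.7 ± 0.89 against 26.1 ± 4.39, edgeR adjusted p = 0.0101), as was Btg1, an antiproliferative factor (220.4 ± 6.95 against 476 ± 183, 0.0180). Btg1 was the 1 list gene called in whole libraries, at 172, 161 and 218 CPM against 243, 469 and 362 (log2 change -1.19, edgeR adjusted p = 0.0378). In whole libraries Ccnd1, Cdk4 and Cdkn1a overlapped between the groups. The Btg1 call was lost there without SH045 1, SH045 2, Vehicle 2 or Vehicle 3 (up to 0.141). In macrophages the Btg1 call was lost without SH045 1 or SH045 3 (up to 0.145), that of Cdk6 without SH045 1, SH045 3, Vehicle 1 or Vehicle 3 (up to 0.108), that of Cdkn2d without Vehicle 1 (0.050) and that of Cdca3 without SH045 1, Vehicle 2 or Vehicle 3 (up to 0.063). Btg1 was also lower in dendritic cells, the distal convoluted tubule, collecting duct principal cells and endothelium. In collecting duct principal cells Cdk4 (140.1 ± 10.3 against 224 ± 25.1 CPM) and Cdkn1a (68.1 ± 7.09 against 104 ± 13.3) were lower as well (edgeR adjusted p = 0.0086 and 0.0268). In intercalated cells Gins2, a subunit of the replication helicase complex (3.06 ± 0.62 against 12.5 ± 4.08 CPM), Hmgb2 (82.7 ± 5.45 against 129 ± 21.3) and Ccnd1 (52.7 ± 3.58 against 86.8 ± 20.4) were lower (edgeR adjusted p = 0.0153, 0.0210 and 0.0322). Gins2, at 3.77, 2.62 and 2.79 CPM in the SH045 libraries, passed the low-count filter through the Vehicle libraries and rests on few UMIs. In the class led by Chil3 and Camp Hmgb2, a chromatin protein abundant in dividing cells, was higher (630, 570 and 471 against 194, 153 and 171 CPM, edgeR adjusted p = 0.0010), as was Stmn1, a microtubule regulator (201 ± 40.4 against 57.9 ± 17.7, edgeR adjusted p = 0.0319).

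The log2 change also moved with transcript length. Over the 38 genes in macrophages, Spearman's rho between the length of the longest annotated transcript and the log2 change was 0.58, and over all 12198 genes with a length it was 0.46. Shorter transcripts were lower with SH045. In T cells these values were 0.51 and 0.33. In injured tubule cells rho was 0.24 over 32 genes and 0.50 over all genes. Genes are not independent replicates, and these values share the same libraries, so they are given as descriptions. Ccnb2 and Ube2c are short (1531 and 2191 bases) and Mki67 and Cenpf are long (10061 and 11130). With the length trend of each library taken out, 5 of the 7 injured tubule calls remained (Birc5, Ccna2, Ccnb2, Cdk1 and Cenpf), and the number of called genes of all kinds in that class went from 248 to 47.

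**Figure D5:**
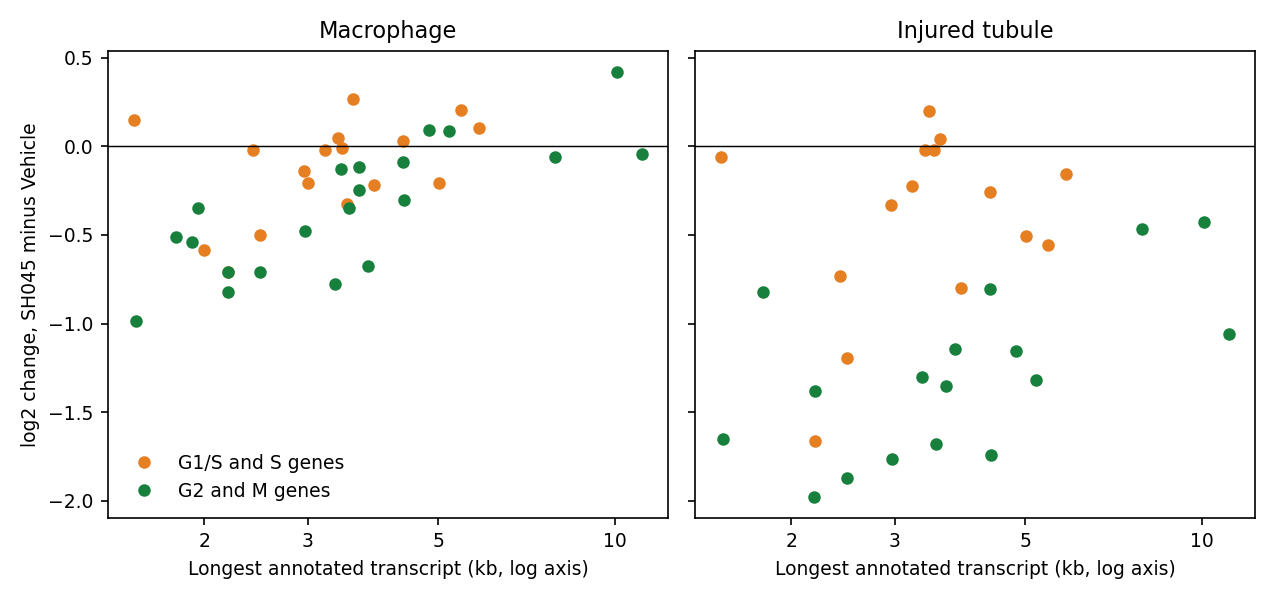
Log2 change (SH045 minus Vehicle) of each gene against the length of its longest annotated transcript (log axis), in macrophages and in injured tubule cells, coloured by phase. In macrophages longer transcripts lie higher, and in injured tubule cells G2 and M genes lie below 0 at every length.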

How the data were processed

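The single-cell libraries were made with the GEXSCOPE kit (Singleron), whose beads tag polyadenylated RNA with a cell barcode and a UMI. The deposited matrices hold UMI counts per gene and barcode. The genome build recorded for them is mm10, and the aligner and counter are not given in the sources used here. Barcodes with at least 200 genes and at most 50% mitochondrially encoded UMIs were kept. Each cell took the class whose markers it exceeded most, with at least 3 detected markers, and 1521 cells took none. Clusters (scanpy 1.11.5, igraph 0.11.9, Leiden resolution 1.0, 2000 variable genes, no cell cycle gene) served as an alternative. No doublets were removed for the values given first, and the 5% of cells with the highest Scrublet scores (1108 cells) were left out as an alternative.

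Counts were summed per library and class, for classes with at least 20 cells in every library, which gave 12 classes, 4 compartments and the whole library. Each sum was tested with edgeR 4.0.16 (R 4.3.3, limma 3.58.1), with its low-count filter, TMM scaling and the quasi-likelihood test, over the 3 SH045 and 3 Vehicle libraries, and p-values were adjusted (Benjamini-Hochberg) over all genes of that class. The steps were tested on simulated data, drawn from the same count model with planted changes. That run checks the steps only and bears on no result above. DESeq2 1.42.0 was an alternative. Shares of cells, summed CPM and the G2 and M share have no test. Intervals cover counting error only.

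The 38 genes and the lists were chosen with earlier results of these data known, and the scoring rule for classes, the removal of shared barcodes, the test of differences between classes and the Havcr1 cluster were chosen after seeing the data. Values are named for Mki67, Top2a, Pcna, Mcm5, Ccnb1 and Cenpa over classes, for every called gene of the set, for the highest gene of each role group, for Cdkn1a, Ccnd1 and Cdk4, and for called genes of the other lists. The class assigned from monocyte markers is named by its leading genes. Other genes named were chosen after their values were seen.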

Additional observations from a re-analysis of the deposited data

How the results depend on the processing

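Depth limits the tubule classes, where a called gene of the set can rest on 24 UMIs per group. Gins2, of the other lists, rests on fewer with SH045, and 3 mice per group limit every test. Among fits of single named genes under alternatives, 1503 kept direction and side of the threshold, 118 lost a call and 26 gained one, 76 moved, and 1 reversed (Mki67 in collecting duct principal cells without Vehicle 3, with log2 changes of -1.77 to 2.08 over the fits that leave out 1 library). Every summed level and G2 and M share moved by less than 1 SD. Where not stated, the cause was not tested.

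With DESeq2 the genes lower with SH045 numbered 2 in injured tubule, 0 in intercalated, 5 in macrophages, 6 in whole libraries and 10 in all tubule cells. A gene to which DESeq2 gave no adjusted p could not be called. Without a low-count filter they numbered 3 in collecting duct principal, 11 in distal convoluted tubule, 1 in fibroblasts, 14 in injured tubule, 3 in intercalated, 7 in macrophages, 1 in proximal tubule, 3 in whole libraries and 9 in all tubule cells, and 3 were higher in the class led by Chil3 and Camp. Without the highest Scrublet scores the lower genes numbered 2 in injured tubule, 0 in intercalated and 5 in the myeloid compartment. With classes from clusters they numbered 2 in collecting duct principal, 0 in intercalated and 5 in macrophages. At most 20% mitochondrial UMIs gave 1 in distal convoluted tubule, 5 in macrophages and 1 in whole libraries, DESeq2 size factors gave 1 in whole libraries, and removal of the length trend gave 0 in intercalated and 1 in whole libraries, with 1 higher in the lymphoid compartment. The difference in the stromal share of cells with 5 UMIs of the set went from -1.21 to 2.77 percentage points after thinning, to 4.16 with at least 3 UMIs after thinning and to 3.36 with 5 G2 and M UMIs.

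Leaving out 1 library at a time gave 2 to 7 lower genes in injured tubule, 0 to 6 in macrophages and in distal convoluted tubule, 0 to 4 in collecting duct principal, 0 to 1 in intercalated and in the lymphoid compartment and 0 to 3 in the myeloid compartment. Higher genes numbered 0 to 2 in endothelium and 0 to 1 in collecting duct principal, macrophages, the class led by Chil3 and Camp and the myeloid compartment.

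The replicate numbers were not used as pairs, since the labels state no pairing. Same-numbered libraries deviated together at correlations of 0.027, 0.090 and 0.262, the last the highest of any pair, and SH045 1 correlated best with Vehicle 2 (0.118). So few libraries cannot decide whether the mice were paired. With the replicate block the lower genes numbered 7 in injured tubule, 5 in macrophages, 4 in intercalated and 0 in collecting duct principal, and 1 was higher in the class led by Chil3 and Camp.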
